A study of Arabidopsis thaliana with 4 samples.

Results

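AT5G37990 and AT5G38020 are a pair of genes on chromosome 5 of Arabidopsis thaliana that belong to the SABATH family of S-adenosylmethionine-dependent methyltransferases. They are 2 of the 13286 genes that could be named from a probe set of their own on the Affymetrix ATH1 array, and each is read by 1 probe set. The members were chosen by their measured signals on these same arrays, low or near the floor in wild type and higher in the mutant, so their levels and differences are given as a description without a test. RNA came from whole seedlings kept in darkness for 4 days at 22 °C, after 3 days of cold and 4 hours of light to start germination. The wild type was compared with the ein3-1 eil1-1 double mutant (ein3 eil1 from here on), with 2 arrays per genotype. Both genotypes were grown in the same way and received no further treatment. According to the labels, the mutant accumulates more protochlorophyllide than the wild type in darkness. In whole seedlings, fewer cells of a type and less RNA per cell cannot be told apart.

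SABATH enzymes move a methyl group from S-adenosylmethionine to small molecules, mostly to the carboxyl group of plant acids. Known products in Arabidopsis are methyl jasmonate, made by JMT, and methyl salicylate and methyl benzoate, made by BSMT1. Others methylate auxin (IAMT1) or gibberellins (GAMT1 and GAMT2), which can change the activity or the volatility of a hormone. The family list used here has 24 genes, members included, and for many of them, AT5G37990 and AT5G38020 among them, no acceptor is named in the sources used here. EIN3 and its close relative are transcription factors at the end of the ethylene pathway, and seedlings without them respond poorly to ethylene.

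Some facts of the whole set bear on every value. The deposited signals had medians from 49.2 to 84.8 across the 4 arrays, and the brightest array, ein3 eil1 replicate 2, had a trimmed mean 1.77 times the lowest, so the values were quantile normalised as log2(value + 3). Levels below are on that scale, as mean ± SD with n = 2, and differences are mutant minus wild type. The 40th percentile of each array lay at 5.18 on that scale, and the test took the 14047 probe sets that were this bright or brighter on 2 or more of the 4 arrays. No batch is given in the labels. By the level of the Bacillus control probe sets, the arrays fell into 2 pairs of 1 wild-type and 1 mutant array (mean log2 levels of 7.86 and 7.95 in pair 1, and 6.37 and 6.40 in pair 2). These pairs, called control-level pairs here, are read from the data alone, and differences are also given within each. EIN3 itself was lower in the mutant, at 6.86 ± 0.50 against 9.99 ± 0.36 (difference -3.12, limma adjusted p = 0.012, and 0.0504 without a filter). Of 9 marker genes of seedlings and other organs, 2 had a named probe set, PORB and PYK10. PORB, a protochlorophyllide oxidoreductase gene listed for dark-grown seedlings, was at 12.65 ± 0.62 in wild type and 11.53 ± 0.39 in the mutant. Its difference of -1.13 did not pass (limma adjusted p = 0.41). The root gene PYK10 was at 13.24 ± 0.16 and 13.22 ± 0.18.

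AT5G37990 went from the floor of the array in wild type to well within its range in the mutant. Its deposited signal was 0.7 and 2.7 on the wild-type arrays and 137.6 and 506.3 on the mutant arrays. Both wild-type signals were among the dimmest on their arrays, brighter than 1.63% and 8.47% of the probe sets, while the mutant signals were brighter than 71.7% and 85.2%. After normalisation the wild-type values were 1.97 and 2.41 and the mutant values 7.32 and 8.41, so the genotypes did not overlap. The means were 2.19 ± 0.31 and 7.87 ± 0.77, a log2 difference of 5.68 (SE 0.56). The wild-type values lay below the level that the filter asks for, and the gene passed the filter through the mutant arrays alone. The size of its difference therefore depends on the pseudocount, at 7.32 without one and 3.81 with one of 16. Set against the 40th percentile in place of the wild-type signal, the mutant mean was 6.44-fold higher.

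AT5G38020 lay between the 40th percentile and the array median in wild type and was brighter in the mutant. Its deposited signal was 35.9 and 40.2 in wild type against 152.4 and 540.4 in the mutant. It reached the 40th percentile on all 4 arrays, being brighter than 44.2% and 45.0% of the probe sets in wild type against 73.8% and 86.1% in the mutant. The normalised values were 5.49 and 5.55 in wild type against 7.47 and 8.51 in the mutant, again without overlap. The means were 5.52 ± 0.04 and 7.99 ± 0.74, a log2 difference of 2.47 (SE 0.37). By size and order alone, 1.84% of the tested probe sets were at least 2-fold higher in the mutant without overlap and 1.89% were at least 2-fold lower, and both members are in the first share by their choice.

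**Figure D1:**
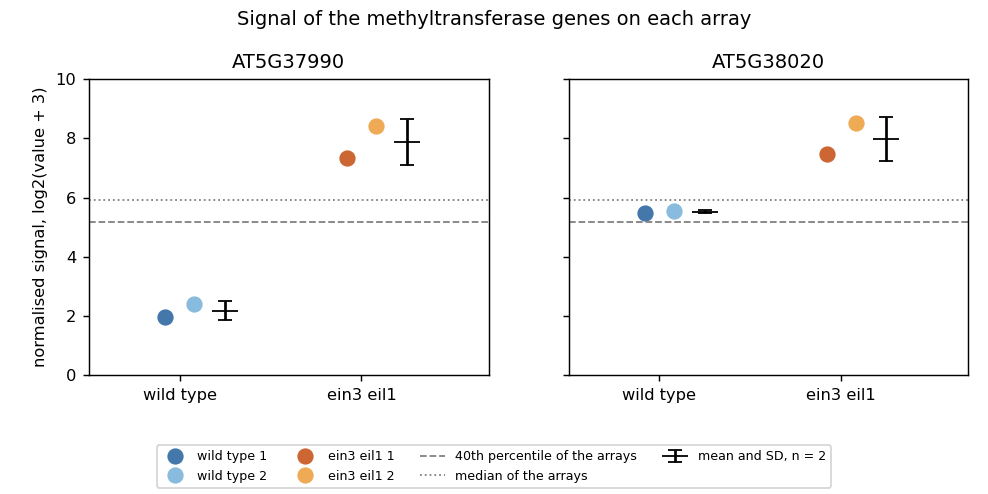
Normalised signal, log2(value + 3), of AT5G37990 and AT5G38020 on each array (points), with the mean and SD of 2 arrays per genotype and the 40th percentile and median of the arrays as lines. The wild-type points of AT5G37990 lie far below the 40th percentile and those of AT5G38020 just above it, and in both panels ein3 eil1 replicate 2 is the highest point.

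On the normalised scale the mutant arrays differed from each other more than the wild-type arrays did for both genes, and by nearly the same amount in both. From mutant replicate 1 to mutant replicate 2 the gap was 1.09 log2 units for AT5G37990 and 1.05 for AT5G38020, and these gaps differed by 0.04. Across the tested probe sets the median absolute gap between the mutant arrays was 0.33, and gaps as large in the same direction were seen in 3.22% and 3.56% of them. In the deposited signals the mutant arrays differed 3.68-fold and 3.55-fold for the members, against 1.68-fold for the array medians. The normalised wild-type values differed by 0.44 for AT5G37990 and by 0.06 for AT5G38020. Both wild-type signals of AT5G37990 lay near the floor (0.7 and 2.7 as deposited), where the pseudocount narrows a gap. For that gene the wild-type gap therefore cannot be set against the mutant gap. Within control-level pair 1 the difference between genotypes was 5.35 for AT5G37990 and 1.97 for AT5G38020. Within pair 2 it was 6.00 and 2.96. The mutant arrays also differ in control level and in brightness, and the part of these in the gap was not tested.

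Of the genes around the members on chromosome 5, none that could be tested passed the test. In the order of the RefSeq annotation, 2 protein-coding genes lie between AT5G37990 and AT5G38020, AT5G38000 and AT5G38010, and neither had a named probe set of its own. With 10 genes on each outer side the neighbourhood has 22 genes besides the members, of which 13 had a probe set of their own and 4 could be tested. Of these 4, 0 passed limma at an adjusted p of 0.05 in either direction, and 0 had an unadjusted p under 0.05. Over all tested probe sets, 0.0783% were called higher and 0.214% lower, and 4 genes are too few to stand apart from that background. The median difference of the 4 was 0.23, against 0.01 over all tested probe sets.

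AT5G38030 lies next to AT5G38020 on its outer side and reached the 40th percentile on all 4 arrays. Its deposited signal was 216.2 and 101.3 in wild type against 309.4 and 401.5 in the mutant. After normalisation both mutant values, 8.44 and 8.07, were above both wild-type values, 7.93 and 6.91, and the wild-type arrays differed by more than the mutant arrays. Its difference of 0.84 (SE 0.38) did not pass the threshold (limma adjusted p = 0.83, from 0.093 to 0.9998 over the alternatives). AT5G37930 differed by -0.24 (SE 0.28), AT5G38070 by 0.48 (SE 0.52) and ASF1B, which encodes a histone chaperone, by -0.02 (SE 0.32). None of these 3 passed (all at a limma adjusted p of 0.9996).

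The remaining 9 named neighbours were too dim to be tested, with deposited signals from 0.6 to 32.4 on the 4 arrays. AT5G37980, next to AT5G37990 on its outer side, read 2.9 and 1.9 in wild type against 3.3 and 18.2 in the mutant. The rest of these were AT5G37900 (-0.96), AT5G37910 (0.52), AT5G37960 (0.48), AT5G38040 (-1.01), AT5G38080 (-0.10), 4CL8 (0.09) and the SABATH genes AT5G37970 (-0.52) and AT5G38100 (-0.86), with the log2 difference in brackets. At these signals a difference has no firm size. Of the 13 named neighbours 6 had a difference above 0 and 7 below.

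**Figure D2:**
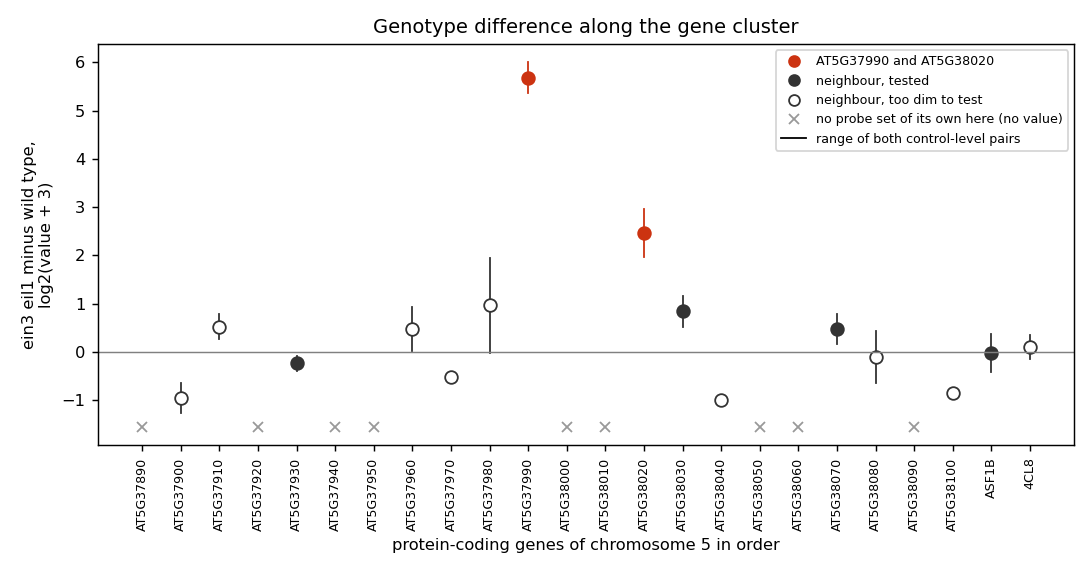
Difference between genotypes, ein3 eil1 minus wild type on the log2(value + 3) scale, for the protein-coding genes around the members in their order on chromosome 5. Vertical lines join the differences within both control-level pairs, open circles are genes too dim to test, and crosses along the bottom are genes without a value. AT5G37990 (5.68) and AT5G38020 (2.47), which were chosen for being higher in the mutant, stand above their neighbours, which lie between -1.01 and 0.97. Both ends of that range are genes too dim to test.

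The members share the neighbourhood with 2 further SABATH genes, and neither was brighter in the mutant on both arrays. AT5G37970, on the AT5G37990 side, had deposited signals of 13.7 and 31.6 in wild type against 9.0 and 31.7 in the mutant. In normalised values the genotypes overlapped, at 4.72 ± 0.64 and 4.20 ± 0.78. AT5G38100, on the AT5G38020 side, had 25.0 and 32.4 in wild type against 13.0 and 23.6 in the mutant, and 5.12 ± 0.14 and 4.26 ± 0.23 after normalisation. Each reached the 40th percentile on 1 of the 4 arrays, so neither was tested.

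Across the other 22 SABATH genes of the list, 14 had a probe set of their own, and 4 of those could be tested. None of the 4 passed limma at an adjusted p of 0.05, and 3 had an unadjusted p under 0.05: NAMT1, AT2G14060 and AT3G21950. The share of all tested probe sets under that unadjusted level was not computed, so the count of 3 has no background here. Of the 4, 1 had a positive difference and 3 a negative one, with a median of -1.12 against 0.01 over all tested probe sets. AT2G14060 and AT3G21950 passed the filter through the wild-type arrays alone, so that they were tested depended on their being lower in the mutant. Neither these counts nor the median are therefore a measure of the family. Of the 14 named genes, 8 stayed below the 40th percentile on every array and 2 reached it on 1 array.

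NAMT1 was the other SABATH gene at or above the 40th percentile on all 4 arrays, and its mean was higher in the mutant. Its deposited signal was 41.1 and 50 in wild type against 107.9 and 171.5 in the mutant. The normalised values of 5.68 and 5.86 in wild type against 6.98 and 6.87 in the mutant did not overlap, and the mutant arrays lay closer together than those of AT5G37990 or AT5G38020. The difference was 1.15 (SE 0.29, limma adjusted p = 0.30), with 1.30 in control-level pair 1 and 1.00 in pair 2. With the control-level pair as a block NAMT1 passed (adjusted p = 0.025, and from 0.025 to 0.80 over the alternatives). That fit called 1.33% of the tested probe sets higher and 1.60% lower. It leaves 1 residual degree of freedom for each probe set, so its p values lean on the spread that limma shares across probe sets.

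AT2G14060 had lower signals in the mutant. Its deposited signal was 61.9 and 63.8 in wild type against 10.7 and 17.6 in the mutant, so both mutant signals were below both wild-type signals and below the 40th percentile. The difference was -2.25 (SE 0.47, limma adjusted p = 0.15), with -2.36 and -2.13 within the control-level pairs. It passed with the control-level pair as a block (adjusted p = 0.024), without a variance trend (0.042) and without ein3 eil1 replicate 2 (-2.27, adjusted p = 0.024), and the range over the alternatives was 0.024 to 0.35. AT3G21950 had 33.8 and 36.7 in wild type against 12.9 and 15.2 in the mutant, again without overlap. Its difference was -1.41 (SE 0.57, limma adjusted p = 0.75). AT3G21950 fell out of the filter in the same settings as AT2G14060 and did not pass under any of the 10 alternatives that tested it. AT4G36470 had 30.8 and 14.8 in wild type against 2.6 and 47.7 in the mutant, and its difference of -0.83 (SE 1.01, adjusted p = 0.9996) changed sign between the control-level pairs (-2.73 and 1.08).

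BSMT1 and JMT, the named genes with a known volatile product, stayed below the 40th percentile in both genotypes. BSMT1 had deposited signals of 1.1 and 1.4 in wild type against 1.2 and 2.1 in the mutant. JMT had 2.2 and 11.6 in wild type against 0.6 and 0.9 in the mutant. AT5G04380 had 2.1 and 13.8 in wild type against 16 and 26.5 in the mutant. AT5G04380 was also below that percentile on all 4 arrays, as were AT1G66720, AT1G68040, AT3G44840, AT5G38780 and AT5G66430, whose differences ran from -1.19 (AT3G44840) to 0.50 (AT5G66430).

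Of the 8 SABATH genes without a probe set of their own, 4 share one with a close relative, and no gene is named from those. The probe set shared by PXMT1 and AT1G66690 read 21.2 and 37.0 in wild type against 34.9 and 162.6 in the mutant. Its normalised difference was 0.99 (SE 0.52, limma adjusted p = 0.91), and the genotypes touched, with wild type replicate 2 and ein3 eil1 replicate 1 both at 5.42. The probe set shared by FAMT and AT3G44870 was dim, at 14.7 and 1.8 in wild type against 10 and 12.9 in the mutant. Probe sequences were not used here, so whether the probe sets of AT5G37990 and AT5G38020 also bind transcripts of other family members was not tested. None of the 16 methyl ester hydrolase genes, whose enzymes can remove such methyl groups, and none of the 11 genes of the S-adenosylmethionine cycle had a named probe set, and they were not analysed here.

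**Figure D3:**
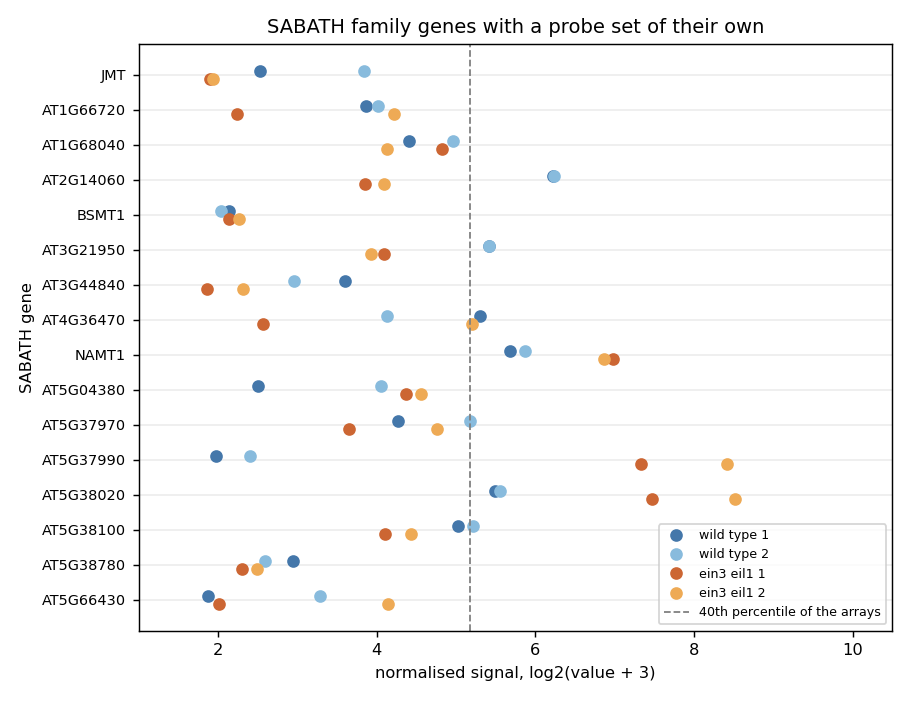
Normalised signal, log2(value + 3), of the 14 other SABATH genes with a probe set of their own and of both members on each of the 4 arrays, with the 40th percentile of the arrays as a dashed line. Among genes that passed the filter, the mutant points of AT5G37990, AT5G38020 and NAMT1 lie to the right of the wild-type points and of the line. Those of AT2G14060 and AT3G21950 lie to the left, and the wild-type points of each nearly coincide. Among genes too dim to test, both mutant points lie left of the wild-type points in JMT, AT3G44840, AT5G38100 and AT5G38780. In AT5G04380 they lie to the right of the wild-type points.

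Likeness to the members was measured over the 4 arrays, as the root mean square distance between mean-centred log2 profiles, against 7518 tested probe sets with 1 named gene. With 4 arrays such a ranking mostly follows the size of the difference between genotypes, and it is a description. The gene nearest to AT5G37990 was COR15A, a cold-induced chloroplast protein gene, at a distance of 0.87. COR15A read 2.9 and 2.9 in wild type against 172.7 and 170.8 in the mutant, so it shared the rise from the floor but not the higher value on mutant replicate 2 (a normalised gap of -0.78). AT4G26790 (1.50), AT4G28780 (1.50), the NRT1/PTR family gene AT3G21670 (1.59) and AT5G38020 (1.61) came next, against a median distance of 2.88 over all compared. COR15A, AT4G26790 and AT4G28780 passed the filter through the mutant arrays alone, so that they were compared depended on their being higher in the mutant. AT3G21670 and AT5G38020 reached the level of the filter on every array.

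Nearest to AT5G38020 were IAA29, an auxin-response repressor of the Aux/IAA family, at 0.40, and AT3G21670 at 0.43. AT3G45160 (0.44), AT4G13180 (0.47) and AT5G38710 (0.49) followed, against a median of 1.32. AT3G45160 and AT5G38710 passed the filter through the mutant arrays alone, so their being compared also depended on higher signals in the mutant. IAA29, AT3G21670 and AT4G13180 reached the level of the filter on every array. IAA29 had deposited signals of 142.6 and 179.2 in wild type against 845.5 and 1405.0 in the mutant, and its mutant arrays differed by -0.02 after normalisation. Among these 5 genes only AT5G38710 had a mutant gap as large as that of the members, at 1.58. AT5G38710 read 19.2 and 17.1 in wild type against 32.3 and 174.1 in the mutant. Such a gap was not particular to the members. Normalised mutant values were 2.56 and 5.21 for AT4G36470, and 5.42 and 6.79 for the probe set of PXMT1 and AT1G66690. The other tested SABATH genes had 3.86 and 4.10 (AT2G14060), 4.09 and 3.92 (AT3G21950) and 6.98 and 6.87 (NAMT1). Next to the members, the dim AT5G37980 had 2.72 and 4.13, and AT5G38030 had 8.44 and 8.07. AT5G37990 itself came 7041st in likeness to AT5G38020, at a distance of 1.61, which is farther than the median gene. That distance rests on the wild-type values of AT5G37990 near the floor, and so depends on the pseudocount. With a pseudocount of 16 the differences between genotypes were 3.81 for AT5G37990 and 2.18 for AT5G38020.

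**Figure D4:**
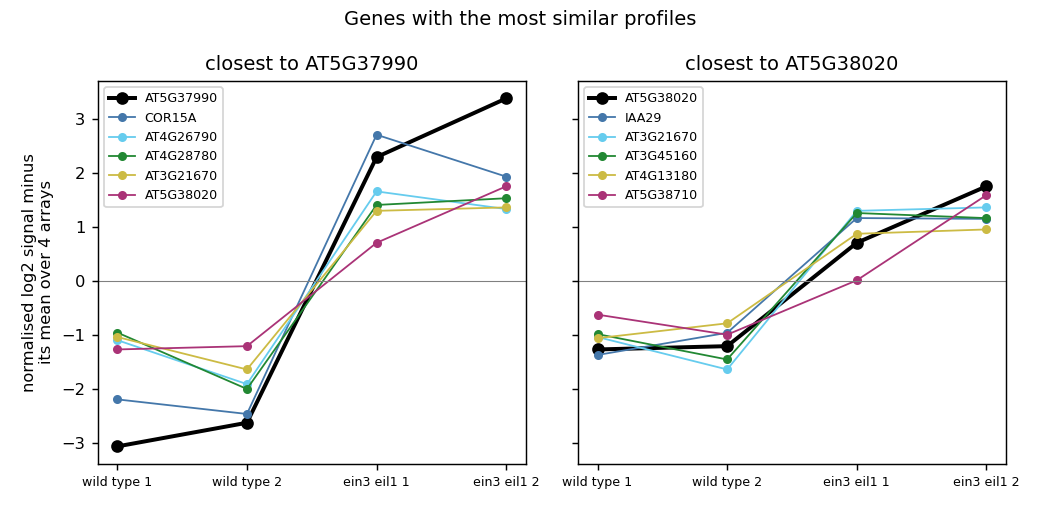
Profiles of AT5G37990 (left) and AT5G38020 (right) with the 5 named genes nearest to each, as normalised log2 signal minus its mean over the 4 arrays. The black lines of both members climb from ein3 eil1 replicate 1 to replicate 2 by 1.09 and 1.05, while IAA29 and AT3G21670 differ by -0.02 and 0.06 and AT5G38710 climbs by 1.58.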

How the data were processed

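RNA of 4 samples was read on Affymetrix ATH1 arrays, 2 of each genotype, grouped by the genotype label. The values deposited by the authors are linear signal intensities, 1 for each probe set and array. MAS5 made them, per the submitters' processing notes, and its scaling target, version and detection calls are not given in the sources used here. Of 22810 probe sets, 64 controls were left out. Signals were taken as log2(value + 3), quantile normalised and compared with limma 3.58.1 in R 4.3.3 (two-sided, mean-variance trend, Benjamini-Hochberg over 14047 tested probe sets, threshold 0.05). The platform annotation gave 1 gene for 13513 probe sets and several for 503, and it did not list 8730. Of the first, 13436 matched a RefSeq gene (TAIR10.1, used for names and gene order). A gene with several probe sets is represented by the brightest. The report names EIN3, both members, each named gene of the SABATH list and the neighbourhood, and the 5 most similar genes per member.

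The members, gene lists and the control-level pair block, which comes from 27 Bacillus control probe sets, were chosen with earlier results of these data known. Planned sequence comparisons were not made, since no sequences were at hand. The titles call 1 array per genotype a biological replicate and nothing tells if the plants had separate cultures, so the spread behind each p value is that of these samples and may be technical. The number of arrays limits precision. Alternatives changed pseudocount, filter, scaling, variance model, block, arrays, probe-set averaging and neighbourhood width. Figures used matplotlib 3.10.9.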

Additional observations from a re-analysis of the deposited data

How the results depend on the processing

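Both members stayed higher in the mutant under each of the 9 alternatives computed for them. They were chosen for being higher in the mutant on these arrays, so the kept direction is no test of it. The block cannot change their differences, since each control-level pair holds 1 array per genotype. The difference of AT5G37990 was 7.32 without a pseudocount (signals of 0 set to 0.1) and 3.81 with a pseudocount of 16, and leaving out 1 array gave 4.96 to 6.26. That of AT5G38020 ran from 1.92 to 2.98 without 1 array. In both genes the lowest came without ein3 eil1 replicate 2 and the highest without ein3 eil1 replicate 1. With the deposited scaling the differences were 5.86 and 2.83, where the median tested probe set had shifted by 0.40. Counts over all probe sets, 11 higher and 30 lower, were less stable: 2 and 12 without a filter, 7 higher with the 40th percentile asked on all 4 arrays, 59 higher under the deposited scaling, 20 and 46 with median centring, 187 and 225 with the control-level pair blocked, and 44 to 142 higher and 48 to 120 lower without 1 array. The cause was not tested. The alternatives for EIN3 were added after seeing the data. Among the 4 other SABATH genes tested the count was 1 higher and 1 lower with the block, against 187 and 225 over all probe sets. Without a variance trend it was 1 lower, against 27 lower over all probe sets. The lower gene was AT2G14060 in both settings, which passed the filter through the wild-type arrays alone. No neighbour was called under any of the 16 alternatives, with 5 or 20 genes on each side included. Of the 5 genes most similar to each member, 3 were shared with a pseudocount of 16. The labels number no replicates, so the arrays were paired by control level alone in that blocked fit. Detection calls were not given, so the 40th percentile stands for the limit of detection, and AT5G37990 has no measured level in wild type, merely a bound.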
